A study of Danio rerio with 12 samples.

Results

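The late regenerate of the zebrafish (Danio rerio) caudal fin was compared with the fin in early outgrowth, as the 3 libraries taken 10 days post amputation (dpa) against the 3 taken at 3 dpa. These 6 libraries were chosen by their labelled stage, out of 12 in the series. The fish were adults of the AB-Tu strain, between 8 and 18 months old, with no further treatment beyond amputation named in the labels. Each library held RNA of the caudal fins of a pool of 6 fish, so the spread between libraries is a spread between pools. The other 6 libraries, 3 from uncut fins (0 dpa) and 3 at 2 dpa, entered the estimate of the spread and are given as levels beside single genes. How much tissue was cut at each stage, and whether a fish was sampled at more than 1 stage, is not given in the sources used here.

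After amputation the wound is covered by epidermis, and the tissue beneath forms a blastema, a mass of dividing cells that regrows the fin. Signals between wound epidermis and blastema (FGF, Wnt, activin, Hedgehog, retinoic acid and others) drive outgrowth, during which the blastema lays down actinotrichia, collagen and young bone. Later, ray joints, pigment cells, nerves with their glia, vessels and a layered epidermis are rebuilt.

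Of 33737 gene identifiers, 16612 passed the filter on low counts and were tested. Transcript abundance was higher at 10 dpa for 1881 of them (11.3%) and lower for 1370 (8.25%), in all 19.6% (edgeR quasi-likelihood test, adjusted p under 0.05). Of these, 1533 were at least 2-fold higher (9.23% of tested genes) and 731 at least 2-fold lower (4.4%). The 10 dpa libraries lay entirely above those of 3 dpa for 3280 genes and entirely below them for as many others, together 39.5% of those tested. Genes were also banded by their average level over all 12 libraries, those of 0 and 2 dpa included, in CPM (counts scaled to library size with TMM factors). Rises made up most calls in the band below 1 CPM, with 155 rises and 27 falls. In the band above 64 CPM falls outnumbered rises, with 366 against 232. The median log2 change of all tested genes in these bands was 0.45 and -0.15. The median log2 change of all tested genes was -0.02. Below, "rose" and "fell" are used of genes that passed, levels are in CPM for replicates 1, 2 and 3 in that order, and errors of log2 changes are SE. A log2 change given without a p belongs to a gene that passed. Gene lists are described by their counts and the median log2 change of tested members, to be read against the shares and median of all tested genes given here. These shares belong to the fit of all 12 libraries by stage. A list count given for another setting is to be read against all calls of that setting, given below, since these differ between settings.

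**Figure D1:**
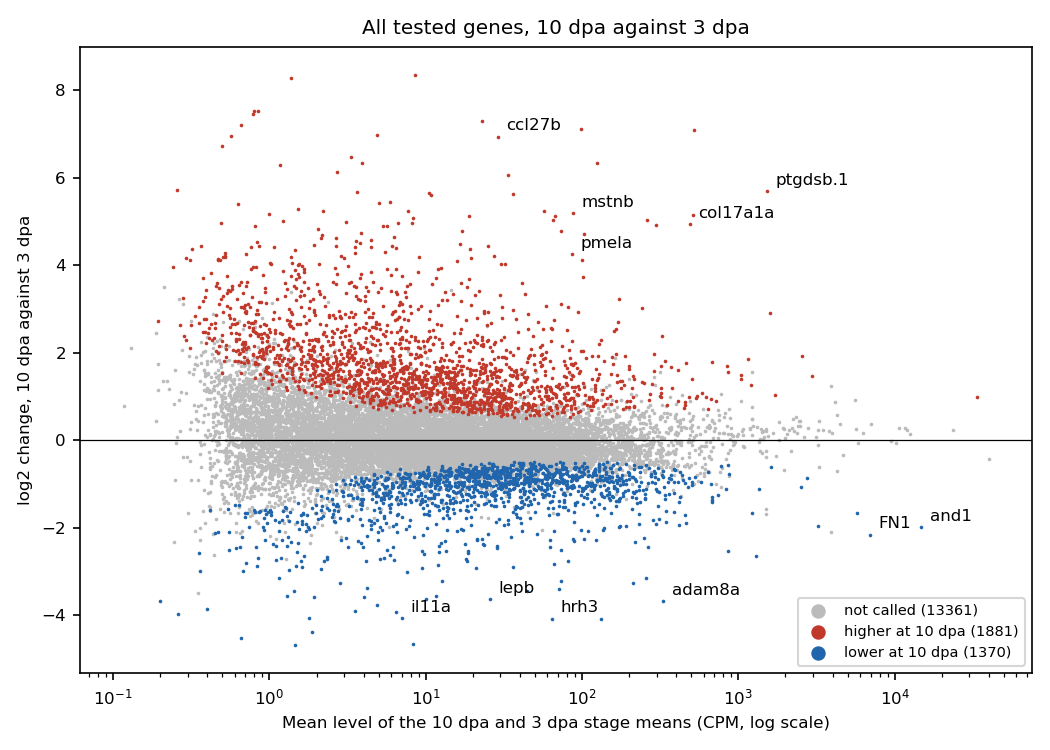
Log2 change between 10 dpa and 3 dpa of every tested gene (vertical axis) against the mean level of both stages in CPM (log axis), 1 point per gene. The 1881 genes higher at 10 dpa reach larger log2 changes than the 1370 lower ones, and il11a, lepb and FN1 lie among the falls while ccl27b, ptgdsb.1 and pmela lie among the rises.

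Total counts of the 6 libraries ran from 9359476 to 22843743, and no pair of replicates agreed within counting noise (chi-square per degree of freedom 17.8 to 65.2 within a stage). The first principal component of the 6 libraries carried 60.6% of the variance and placed 10 dpa from 54.9 to 61.1 and 3 dpa from -64.5 to -50.4. The second (17.0%) placed both replicates 2 at -39.0 (10 dpa) and -39.5 (3 dpa), apart from replicates 1 at 28.9 and 39.5 and replicates 3 at 6.61 and 3.51. Markers of the labelled tissue were present at both stages, the epidermal keratin gene krt5 at 44949.5 ± 4353 CPM at 10 dpa and 22649 ± 1046 CPM at 3 dpa and epcam at 427 ± 132 CPM at 10 dpa and 374 ± 108 CPM at 3 dpa. The replicate number runs together with a field of the alignment names whose meaning is not spelled out in the labels. In a fit of the 6 libraries alone with replicate number as a block, called the paired fit below, 15934 genes were tested. Of these 3091 rose and 2839 fell, more in both directions than in the fit of all 12 libraries, which had also called 1765 and 1349 of them. With 1 of the 6 libraries left out, 1287 to 1533 genes rose. The falls numbered 742 to 955, among them 742 without 10 dpa replicate 3, 840 without 10 dpa replicate 2, 868 without 3 dpa replicate 2 and 898 without 3 dpa replicate 1.

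The largest rises by the naming rule included genes of glia, of skin and of lipid signals, beside others. The myelin gene plp1b had 1.83, 1.51 and 1.34 CPM at 10 dpa, and had 0 counts in the 3 libraries of 3 dpa, which is at least 24.5-fold higher by a floor of 3 counts over the 3 dpa group (adjusted p = 5.22e-04). The transcription factor gene pou3f1, known in mammals for its part in Schwann cell differentiation, had 13.7, 6.29 and 9.10 CPM at 10 dpa, against 0.344, 0 and 0 CPM at 3 dpa (adjusted p = 3.69e-05). Values of both genes in the 10 dpa libraries stood clear of those at 3 dpa, with replicate 2 the lowest at 10 dpa for pou3f1. The chemokine gene ccl27b had 60.8, 70.5 and 41.1 CPM at 10 dpa, against 0.804, 0.202 and 0.609 CPM at 3 dpa (log2 change 6.94 ± 0.58, adjusted p = 1.24e-05). The gene ptgdsb.1, named for prostaglandin D2 synthase, averaged 3001 ± 773 CPM at 10 dpa and 58.5 ± 35.6 CPM at 3 dpa (adjusted p = 4.44e-05). Its neighbour in name, ptgdsb.2, averaged 247 ± 27.3 CPM at 10 dpa and 3.2 ± 2.24 CPM at 3 dpa. The gene foxn1, for a transcription factor of thymus and skin epithelium, had 7.01, 6.98 and 9.20 CPM at 10 dpa, against 0.230, 0.0808 and 0 CPM at 3 dpa (adjusted p = 2.59e-05). AQP3 (ENSDARG00000069518), a channel for water and glycerol, averaged 6.58 ± 1.90 CPM at 10 dpa and 0.0642 ± 0.0788 CPM at 3 dpa. Also among the 12 largest rises were si:ch1073-441p17.1, zgc:136930, si:dkey-183i3.5, fgfbp3 and olfml2ba. Of these si:dkey-183i3.5 had 621, 1278 and 1180.0 CPM at 10 dpa, against 7.69, 9.49 and 5.40 CPM at 3 dpa.

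The largest falls by the naming rule included genes of secreted signals and of receptors, beside others of different kinds. The interleukin gene il11a, of the IL-6 family, had 0.804, 0.815 and 0.723 CPM at 10 dpa, against 15.7, 13.2 and 11.3 CPM at 3 dpa (log2 change -4.07 ± 0.32, adjusted p = 6.48e-06). The leptin gene lepb had 4.68, 3.55 and 3.2 CPM at 10 dpa, against 60.4, 46.2 and 35.8 CPM at 3 dpa (log2 change -3.63 ± 0.43, adjusted p = 1.05e-04). Both remained above the uncut fin in mean level, where il11a averaged 0.394 ± 0.162 CPM and lepb 0.413 ± 0.572 CPM. The histamine receptor gene hrh3 had 10.4, 5.35 and 5.58 CPM at 10 dpa, against 88.9, 155 and 119 CPM at 3 dpa (log2 change -4.08 ± 0.44, adjusted p = 5.51e-05). VIPR1, a receptor for vasoactive intestinal peptide, averaged 0.754 ± 0.520 CPM at 10 dpa and 12.1 ± 3.38 CPM at 3 dpa. The membrane-bound protease gene adam8a had 53.5, 42.1 and 48.6 CPM at 10 dpa, against 587, 773 and 482 CPM at 3 dpa (log2 change -3.68 ± 0.44, adjusted p = 1.04e-04). FREM3, of the family of extracellular proteins that anchor epidermis to dermis, had 19.7, 17.7 and 6.82 CPM at 10 dpa, against 236, 316 and 201 CPM at 3 dpa (log2 change -4.08 ± 0.61, adjusted p = 5.80e-04). CYB5D1, si:dkey-283b15.2, atp6ap1lb, ggt1a, FNDC4 (ENSDARG00000009949) and cald1b completed the 12, and each of them averaged under 20 CPM at 3 dpa.

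Calls among signals known from the wound and blastema were mostly falls. Of the list of blastema and wound induced signals, 3 of 46 tested members rose and 15 fell (median log2 change -0.49). Rises numbered 5 in the unpaired fit of 6 libraries and 7 in the paired fit. Falls numbered 23 in the paired fit. RUNX1, a transcription factor best known from blood formation, averaged 0.473 ± 0.147 CPM at 10 dpa and 3.83 ± 0.276 CPM at 3 dpa (log2 change -2.96 ± 0.55, adjusted p = 0.00242). SALL4 and SALL1 (ENSDARG00000075891), zinc finger regulators of limb development chosen after their values were seen, had log2 changes of -2.28 ± 0.38 and -2.69 ± 0.42. The 3 members that rose were clcf1, a cytokine of the IL-6 family, AGR2, an endoplasmic reticulum protein of mucous cells, and MYC (ENSDARG00000007241), a growth regulator. For clcf1 the levels were 46.2, 33.8 and 33.3 CPM at 10 dpa, against 8.61, 6.38 and 10.7 CPM at 3 dpa (log2 change 2.15 ± 0.33, adjusted p = 6.77e-04). The cytokine genes il11a and clcf1 thus moved in opposite directions.

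FGF genes split between rises and falls. FGFs act through receptor kinases whose activity induces ETS factors and MAP kinase phosphatases. Among the list, 8 of 32 tested members rose and 6 fell (median log2 change -0.0015, of either sign over the alternative settings). Rises numbered 5 without 3 dpa replicate 1. FGF20 (ENSDARG00000007356), named for a ligand known in zebrafish to be needed for blastema formation, had 3.65, 2.33 and 3.10 CPM at 10 dpa, against 10.6, 18.5 and 12.3 CPM at 3 dpa (log2 change -2.21 ± 0.41, adjusted p = 0.00258). The transcription factor gene ETV4 and the phosphatase gene DUSP4, both known as targets of the pathway, had log2 changes of -1.79 ± 0.32 and -1.46 ± 0.30. In the other direction, FLRT2 (ENSDARG00000097299), a membrane protein that binds FGF receptors, had 10.7, 8.61 and 13.3 CPM at 10 dpa, against 1.61, 1.13 and 1.60 CPM at 3 dpa (log2 change 2.93 ± 0.30, adjusted p = 4.20e-05). The FGF binding protein gene fgfbp3 had 1.02, 0.815 and 1.55 CPM at 10 dpa, and had 0 counts in the 3 libraries of 3 dpa, at least 16.5-fold higher by the same floor.

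Wnt genes also moved both ways. Of the list, 12 of 55 tested members rose and 13 fell (median log2 change -0.07, of either sign over the alternative settings). LEF1, a transcription factor that carries the canonical signal, had 127, 101 and 99.9 CPM at 10 dpa, against 426, 244 and 399 CPM at 3 dpa (log2 change -1.70 ± 0.27, adjusted p = 8.19e-04). TCF7, of the same family, had 113, 67.7 and 75.1 CPM at 10 dpa, against 264, 194 and 275 CPM at 3 dpa (log2 change -1.52 ± 0.27, adjusted p = 0.00203). The ligand gene WNT9B had a log2 change of -1.71 ± 0.30. In contrast, the genes of secreted Wnt antagonists frzb and WIF1 were higher in every 10 dpa library. The levels of frzb were 74.4, 76.6 and 76.7 CPM at 10 dpa, against 7.23, 3.80 and 8.14 CPM at 3 dpa (log2 change 3.59 ± 0.37, adjusted p = 4.20e-05). Those of WIF1 were 51.0, 48.8 and 64.7 CPM at 10 dpa, against 8.04, 4.52 and 7.61 CPM at 3 dpa (log2 change 3.05 ± 0.32, adjusted p = 4.44e-05). The 10 dpa mean of frzb lay above that of the uncut fin (20.4 ± 2.58 CPM), while the 10 dpa mean of WIF1 lay below its own (116 ± 13.9 CPM). The ligand gene wnt2 averaged 1.07 ± 0.0787 CPM at 10 dpa and 0.0776 ± 0.0761 CPM at 3 dpa (log2 change 3.53 ± 0.77, adjusted p = 0.00635).

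Among BMP and TGF-beta genes, 15 of 65 tested members rose and 11 fell (median log2 change 0.03, of either sign over the alternative settings). Rises numbered 8 to 9 without 10 dpa replicate 3 or without 3 dpa replicate 1 or 2. Falls numbered 7 without 10 dpa replicate 1 or without 3 dpa replicate 3 and 17 in the paired fit. The gene mstnb for myostatin, a ligand known to limit muscle growth, had 169, 109 and 233 CPM at 10 dpa, against 6.54, 2.1 and 5.78 CPM at 3 dpa (log2 change 5.19 ± 0.54, adjusted p = 4.20e-05). INHBA (ENSDARG00000024759), the activin subunit known to be needed for fin outgrowth in zebrafish, had 16.7, 9.84 and 12.5 CPM at 10 dpa, against 59.6, 40.1 and 51.2 CPM at 3 dpa (log2 change -1.95 ± 0.29, adjusted p = 5.40e-04). BAMBI, a decoy receptor, had a log2 change of -1.39 ± 0.29, and SOSTDC1 (ENSDARG00000068892), a secreted antagonist, one of 2.22 ± 0.49. In the uncut fin mstnb averaged 82.5 ± 14.7 CPM and INHBA 7.99 ± 3.04 CPM.

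Among retinoic acid genes, ALDH1A2 fell and CRABP1 (ENSDARG00000035904) rose. In the retinoic acid list, 4 of 22 tested members rose and 2 fell (median log2 change -0.02, of either sign over the alternative settings). Rises numbered 2 without 3 dpa replicate 2. Falls numbered 1 without 10 dpa replicate 3 or without 3 dpa replicate 2 and 4 in the paired fit. ALDH1A2, which makes retinoic acid, had 20.1, 16.6 and 20.9 CPM at 10 dpa, against 94.3, 113 and 108 CPM at 3 dpa (log2 change -2.45 ± 0.23, adjusted p = 2.11e-05). CYP26B1, which degrades it, averaged 282 ± 35.5 CPM at 10 dpa and 142 ± 23.5 CPM at 3 dpa (log2 change 0.99 ± 0.24, adjusted p = 0.0114), and did not pass without 10 dpa replicate 3 or without 3 dpa replicate 2. The binding protein gene CRABP1 had 11.7, 12.2 and 11.6 CPM at 10 dpa, against 1.84, 1.53 and 1.67 CPM at 3 dpa (log2 change 2.82 ± 0.29, adjusted p = 4.20e-05).

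Of the Hedgehog genes, 1 of 18 tested members rose and 4 fell (median log2 change -0.24). Rises numbered 2 without 3 dpa replicate 3 and 2 in the unpaired fit of 6 libraries, by DESeq2, without 2 dpa replicate 2 or in the paired fit. Falls numbered 2 without 10 dpa replicate 1 or 2 or without 3 dpa replicate 2. The ligand SHH (ENSDARG00000068567) averaged 7.03 ± 1.29 CPM at 10 dpa and 20.7 ± 3.25 CPM at 3 dpa (adjusted p = 0.0154), and did not pass without 10 dpa replicate 1 or without 3 dpa replicate 2. The transcription factor GLI2 (ENSDARG00000025641), which carries the signal to the nucleus, averaged 80.1 ± 10.6 CPM at 10 dpa and 184 ± 17.3 CPM at 3 dpa (adjusted p = 0.00147). GAS1 (ENSDARG00000067984), a surface protein that binds the ligand, was the member that rose (log2 change 1.41 ± 0.26). Of the Notch genes, 5 of 24 tested members rose and 1 fell (median log2 change 0.23). Rises numbered 8 in the paired fit. Falls numbered 4 in the paired fit. The ligand jag1a fell (log2 change -1.58 ± 0.24), while the ligand dlc and the target genes heyl and HEY2 had log2 changes of 1.59 ± 0.36, 2.53 ± 0.39 and 2.05 ± 0.42. For the IGF and insulin axis, 6 of 21 tested members rose and 6 fell (median log2 change 0.0011, of either sign over the alternative settings). Rises numbered 2 to 3 without 10 dpa replicate 1 or without 3 dpa replicate 2 or 3. Falls numbered 2 to 3 without 10 dpa replicate 3 or without 3 dpa replicate 2. The receptor IGF1R (ENSDARG00000027423) averaged 47.4 ± 4.89 CPM at 10 dpa and 88.7 ± 8.08 CPM at 3 dpa (log2 change -0.90 ± 0.17, adjusted p = 0.0031), and IRS2 (ENSDARG00000037099), which relays the insulin and IGF signal inside the cell, averaged 14.8 ± 1.27 CPM at 10 dpa and 5.62 ± 1.41 CPM at 3 dpa (log2 change 1.39 ± 0.24, adjusted p = 0.00139).

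**Figure D2:**
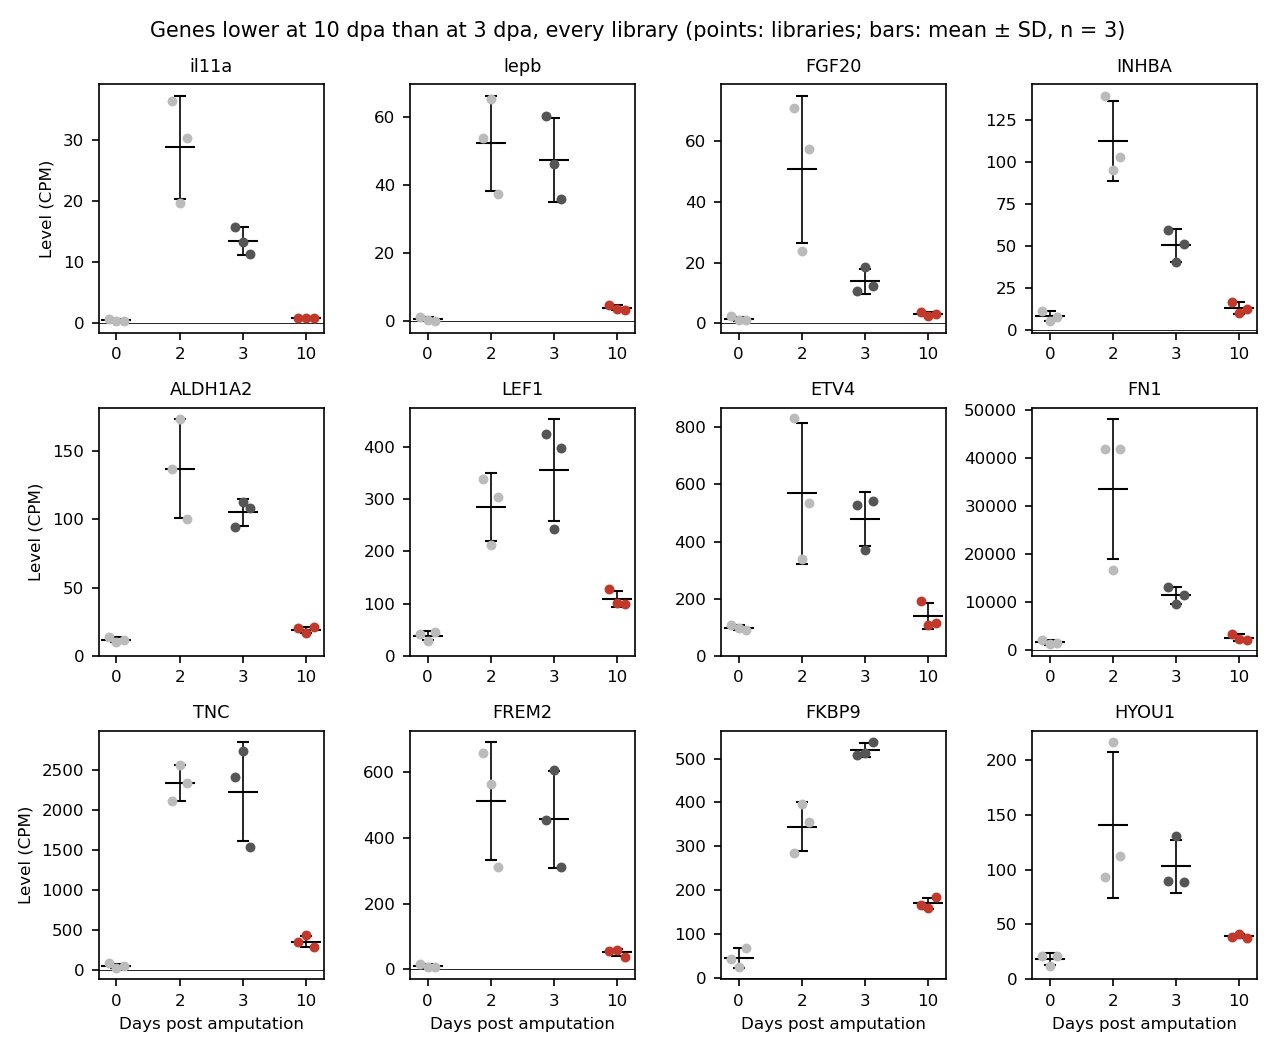
Levels in CPM (vertical axes, starting at or just below 0) of 12 genes that fell between 3 and 10 dpa, by days post amputation. Points are single libraries and bars the mean ± SD of 3. In each panel the 3 points at 10 dpa lie below the 3 at 3 dpa, and FGF20 and FN1 stand highest at 2 dpa while LEF1 and FKBP9 stand highest at 3 dpa.

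Among transcription factors of fin patterning, 6 of 47 tested members rose and 6 fell (median log2 change 0.10, of either sign over the alternative settings). Rises numbered 3 without 10 dpa replicate 1 or without 3 dpa replicate 2 and 15 in the paired fit. Falls numbered 3 without 10 dpa replicate 3 or without 3 dpa replicate 1 or 3 and 12 in the paired fit. LHX2 and FOXP4 fell, with log2 changes of -1.37 ± 0.28 and -1.40 ± 0.30. PAX7 (ENSDARG00000070818), known in fish for its part in pigment cell and muscle precursors, had 24.5, 12.9 and 23.3 CPM at 10 dpa, against 2.41, 0.646 and 2.43 CPM at 3 dpa (log2 change 3.56 ± 0.44, adjusted p = 1.54e-04). The forkhead gene foxc1b and HOXC11 had log2 changes of 1.98 ± 0.30 and 1.44 ± 0.25. Of the genes for fin size and ion transport, 4 of 32 tested members rose and 3 fell (median log2 change -0.08). Rises numbered 2 without 3 dpa replicate 1. Falls numbered 1 without 10 dpa replicate 2 or 3 or without 3 dpa replicate 1, 5 with the block over 12 libraries or without 2 dpa replicate 2, 7 in the unpaired fit of 6 libraries and 9 in the paired fit. KCNMA1, a calcium-activated potassium channel, averaged 1.65 ± 0.337 CPM at 10 dpa and 13.6 ± 4.56 CPM at 3 dpa (log2 change -3.03 ± 0.60, adjusted p = 0.00347). KCNK5 (ENSDARG00000023587), of a potassium channel family in which zebrafish mutants grow long fins, averaged 5.27 ± 1.82 CPM at 10 dpa and 2.38 ± 0.567 CPM at 3 dpa, with adjusted p = 0.0229, which did not pass without 10 dpa replicate 2 or without 3 dpa replicate 1.

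FN1 and TNC of the wound matrix were lower at 10 dpa, and the fibrillar collagens were not called in either direction. Of the matricellular and wound matrix genes, 14 of 48 tested members rose and 6 fell (median log2 change 0.70). More members rose than fell, while FN1 and TNC fell, and the list summed to 15224 to 17037 CPM at 10 dpa, against 26151 to 29906 CPM at 3 dpa. Fibronectin (FN1, ENSDARG00000006526), which forms the early scaffold, had 3304, 2239.9 and 2073 CPM at 10 dpa, against 13067, 9576 and 11404 CPM at 3 dpa (log2 change -2.16 ± 0.37, adjusted p = 0.00142). Tenascin C (TNC, ENSDARG00000021948), a glycoprotein of remodelling matrix, had 347, 433 and 289 CPM at 10 dpa, against 2410.1, 2737 and 1541 CPM at 3 dpa (log2 change -2.65 ± 0.34, adjusted p = 1.99e-04). The second identifier named TNC (ENSDARG00000078362) had a log2 change of -2.77 ± 0.58 and did not pass by DESeq2. Against these, the elastin gene elnb had 5.84, 9.72 and 7.96 CPM at 10 dpa, against 0.919, 0.525 and 0.837 CPM at 3 dpa (log2 change 3.42 ± 0.48, adjusted p = 3.83e-04), and spock2, for a proteoglycan, averaged 1.71 ± 0.349 CPM at 10 dpa and 0.183 ± 0.0925 CPM at 3 dpa.

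Fibrillar collagens form the tensile fibres of dermis and bone. Of this list, 0 of 12 tested members rose and 0 fell (median log2 change 0.08, of either sign over the alternative settings), its 12 genes summing to 59191 to 73303 CPM at 10 dpa, against 66580.0 to 81896 CPM at 3 dpa. The type I collagen gene col1a1a had 32359, 28929.5 and 40712 CPM at 10 dpa, against 53221, 37480.4 and 46907 CPM at 3 dpa (adjusted p = 0.57). The type V collagen gene col5a2b had 234, 329 and 308 CPM at 10 dpa, against 117, 110.1 and 104 CPM at 3 dpa, without overlap, but did not pass in the fit of all 12 libraries (adjusted p = 0.283). Its 0 dpa level was 55.1 ± 65.2 CPM, and the shared estimate of the spread includes those libraries. No fit left out the 0 dpa libraries alone, so their own bearing on the call was not tested. Both fits of 6 libraries leave out 0 and 2 dpa together. The gene col5a2b passed in the fit of the 6 libraries alone (adjusted p = 0.00113) and in the paired fit (adjusted p = 9.92e-05), where 1 and 2 members of the list rose. Of the other collagens, 7 of 23 tested members rose and 0 fell (median log2 change 0.62). Rises numbered 11 in the unpaired fit of 6 libraries and 13 in the paired fit. Falls numbered 1 without 10 dpa replicate 2, without 3 dpa replicate 3 or without 2 dpa replicate 2. They numbered 1 with the block over 12 libraries or by DESeq2, 2 in the unpaired fit of 6 libraries and 3 in the paired fit. COL8A1, a short-chain collagen of vessel and basement membranes, averaged 10.9 ± 5.97 CPM at 10 dpa and 0.421 ± 0.295 CPM at 3 dpa, and col15a1b, a collagen beneath endothelium and muscle, had 8.77, 10.0 and 13.95 CPM at 10 dpa, against 1.38, 0.565 and 1.29 CPM at 3 dpa (log2 change 3.42 ± 0.43, adjusted p = 1.57e-04). The cartilage collagen gene col9a3 averaged 5.09 ± 4.38 CPM at 10 dpa and 0.231 ± 0.195 CPM at 3 dpa.

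Of the 3 measured actinotrichia genes (median log2 change -1.99), which code for proteins of the stiff fibrils at the fin tip, 1 fell. It was and1, with 8015, 3779 and 6016 CPM at 10 dpa, against 28385, 11506 and 31032 CPM at 3 dpa (log2 change -1.99 ± 0.62, adjusted p = 0.0359), which did not pass without 10 dpa replicate 1, 2 or 3 or without 3 dpa replicate 1 or 3 or with no filter on low counts. Levels of and2 were 1701, 1117 and 1601 CPM at 10 dpa, against 7588, 3891 and 7649 CPM at 3 dpa (adjusted p = 0.108), without overlap, and those of and3 were 23.2, 8.67 and 12.4 CPM at 10 dpa, against 9.07, 2.71 and 8.14 CPM at 3 dpa (adjusted p = 0.123). For and1 and and2 the second 3 dpa replicate was the lowest of its stage and yet stood above every 10 dpa library. In the paired fit 2 of the 3 genes fell and 1 rose. In the unpaired fit of 6 libraries 2 fell, and with the block over 12 libraries 1 rose.

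The transcript of a hyaluronan synthase was lower and that of a breakdown protein higher. In the list of hyaluronan and large proteoglycans, 1 of 17 tested members rose and 5 fell (median log2 change -0.53). Rises numbered 2 in the unpaired fit of 6 libraries and 4 in the paired fit. Falls numbered 2 to 3 without 10 dpa replicate 1 or 3 or without 3 dpa replicate 1 or 2 and 8 in the paired fit. HAS2, which makes hyaluronan, had 14.1, 13.2 and 9.61 CPM at 10 dpa, against 61.4, 69.1 and 41.9 CPM at 3 dpa (log2 change -2.22 ± 0.42, adjusted p = 0.00261). CEMIP, which takes part in hyaluronan degradation, had 149, 126 and 119 CPM at 10 dpa, against 37.9, 25.0 and 56.2 CPM at 3 dpa (log2 change 1.73 ± 0.29, adjusted p = 0.00118). Of the small leucine-rich proteoglycans, 5 of 15 tested members rose and 1 fell (median log2 change 0.57). Rises numbered 3 without 10 dpa replicate 1 or without 3 dpa replicate 1 or 2 and 8 in the paired fit. Falls numbered 4 in the paired fit. Podocan (PODN) and biglycan (BGN, ENSDARG00000002945) had log2 changes of 4.89 ± 0.53 and 2.96 ± 0.60. The gene chad, for chondroadherin of cartilage, averaged 44.0 ± 5.48 CPM at 10 dpa and 5.95 ± 3.44 CPM at 3 dpa. The member that fell, ecm2, had 80.4, 86.1 and 81.3 CPM at 10 dpa, against 340.3, 579.7 and 425 CPM at 3 dpa (log2 change -2.44 ± 0.33, adjusted p = 2.67e-04).

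Among metalloproteinases and their inhibitors, 8 of 43 tested members rose and 8 fell (median log2 change -0.18). Rises numbered 4 to 5 without 10 dpa replicate 2 or 3 or without 3 dpa replicate 1 or 2. Falls numbered 17 in the paired fit. The stromelysin gene mmp11b had 80.0, 73.6 and 108 CPM at 10 dpa, against 329, 464 and 444 CPM at 3 dpa (log2 change -2.24 ± 0.28, adjusted p = 1.68e-04), the collagenase gene mmp13a averaged 41.9 ± 20.4 CPM at 10 dpa and 177 ± 87.4 CPM at 3 dpa (log2 change -2.07 ± 0.44, adjusted p = 0.00559), and MMP24, a membrane-type protease, averaged 5.71 ± 0.765 CPM at 10 dpa and 29.9 ± 2.05 CPM at 3 dpa. In the other direction, mmp20b, named for the protease of enamel matrix, had 7.89, 7.57 and 11.5 CPM at 10 dpa, against 0.804, 0.767 and 0.989 CPM at 3 dpa (log2 change 3.38 ± 0.56, adjusted p = 0.00111), which is above its level in the uncut fin (0.802 ± 0.853 CPM). ADAMTS8 (ENSDARG00000058252) had a log2 change of 3.78 ± 0.41.

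Genes of protein export formed the list with the largest share of falls. In the secretory pathway and unfolded protein response list, 0 of 65 tested members rose and 32 fell (median log2 change -0.74), and 56 of its 65 members had a log2 change below 0, against 8510 of all 16612 tested genes. Rises numbered 1 without 10 dpa replicate 3 and 2 in the paired fit. Falls numbered 22 to 29 with 1 of the 6 libraries left out and 31 to 47 in the other alternatives. The 10 dpa libraries lay entirely below those of 3 dpa for 44 members, against 3280 of all 16612 tested genes. SEC61B, of the channel that carries new proteins into the endoplasmic reticulum, had 461, 285 and 363 CPM at 10 dpa, against 1188, 716 and 1058 CPM at 3 dpa (log2 change -1.42 ± 0.27, adjusted p = 0.00307). The chaperone HYOU1 had 38.6, 41.6 and 37.9 CPM at 10 dpa, against 90.02, 131 and 88.4 CPM at 3 dpa (log2 change -1.39 ± 0.31, adjusted p = 0.00696). MANF, a protein induced by stress of the endoplasmic reticulum, had 10.23, 9.08 and 9.72 CPM at 10 dpa, against 26.2, 26.5 and 21.8 CPM at 3 dpa (log2 change -1.36 ± 0.22, adjusted p = 8.57e-04). For all 3 the stages were apart, and the largest fall was 2.67-fold. The summed level of the list was 6103 to 7010.4 CPM at 10 dpa, against 10667 to 12004 CPM at 3 dpa. The coat protein gene SEC23B had the highest log2 change of the list at 0.91 ± 0.36, and did not pass (adjusted p = 0.0938), except without 10 dpa replicate 3.

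**Figure D3:**
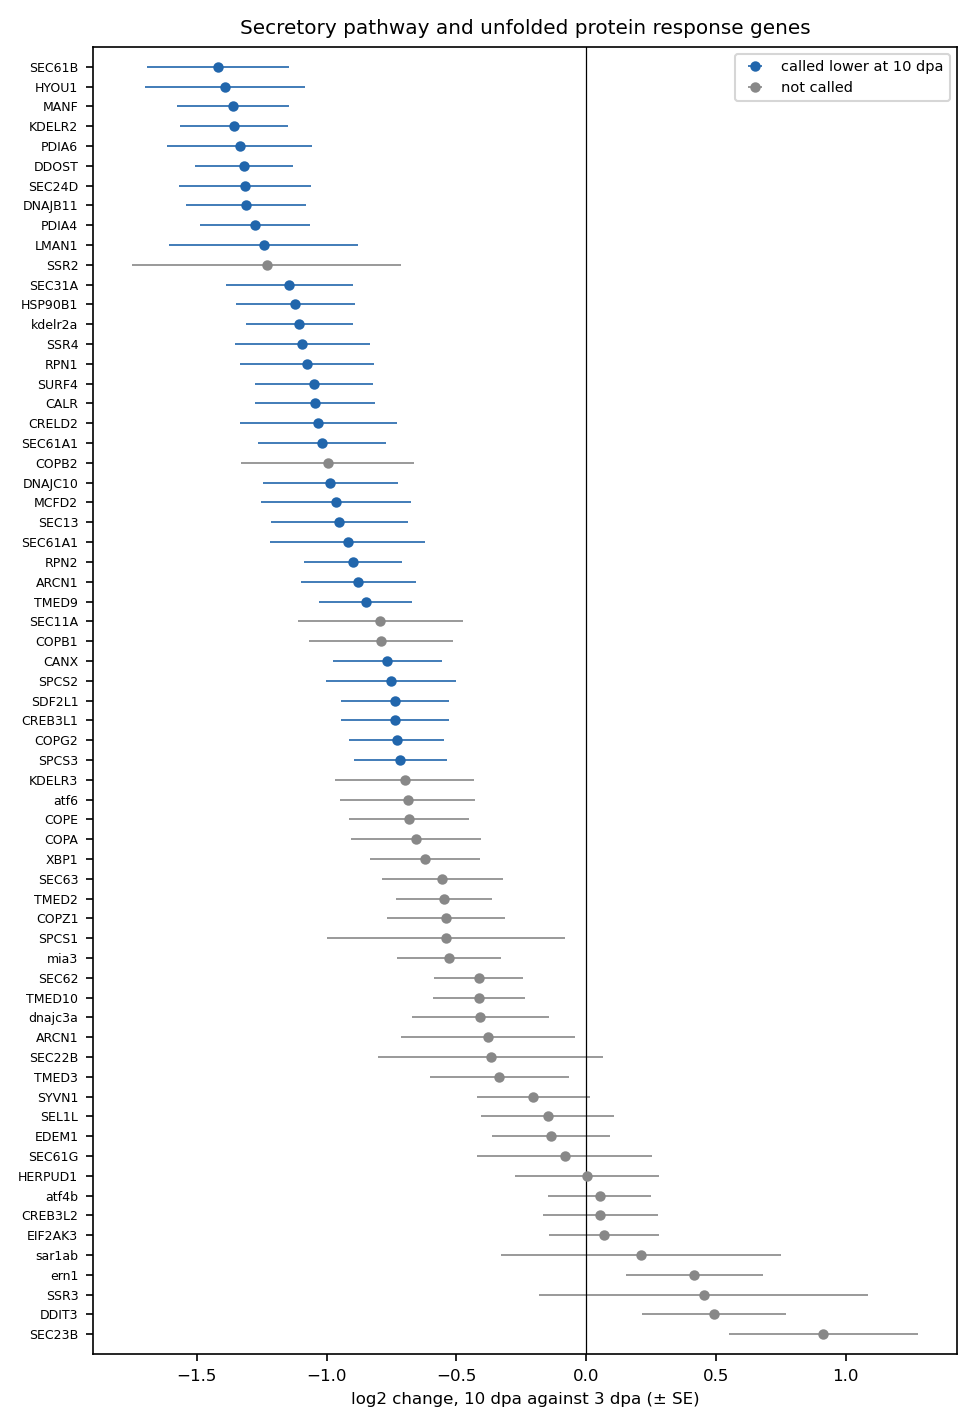
Log2 change ± SE between 10 dpa and 3 dpa (horizontal axis) of the 65 tested genes of the secretory pathway and unfolded protein response list, 1 row per gene. The 32 genes called lower lie between -1.42 and -0.72, and 56 of the 65 lie below 0.

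Calls among enzymes that fold and cross-link collagen were mostly falls as well. Of this list, 4 of 36 tested members rose and 12 fell (median log2 change -0.82). Falls numbered 6 without 10 dpa replicate 2, 19 in the unpaired fit of 6 libraries or without 2 dpa replicate 2 and 24 in the paired fit. The prolyl isomerase FKBP9 had 166, 159.5 and 184 CPM at 10 dpa, against 509, 512 and 537 CPM at 3 dpa (log2 change -1.61 ± 0.30, adjusted p = 0.00223). ADAMTS3, a procollagen proteinase, had 27.0, 24.2 and 20.6 CPM at 10 dpa, against 85.2, 69.2 and 71.5 CPM at 3 dpa and did not pass without 10 dpa replicate 3. The members that rose were pcolceb, an enhancer of procollagen processing, the protease BMP1 (ENSDARG00000028053), and the cross-linking enzymes LOXL1 and LOXL3 (ENSDARG00000076306). Of these pcolceb had 173, 156 and 235 CPM at 10 dpa, against 12.1, 5.73 and 15.14 CPM at 3 dpa (log2 change 4.11 ± 0.36, adjusted p = 1.52e-05), and LOXL3 had a log2 change of 1.62 ± 0.27. Another identifier named BMP1 (ENSDARG00000028071) averaged 199 ± 36.5 CPM at 10 dpa and 474 ± 76.6 CPM at 3 dpa and passed as lower (adjusted p = 0.0173), but did not pass without 10 dpa replicate 1 or without 3 dpa replicate 2 or 3. The list summed to 2601 to 2785 CPM at 10 dpa, against 4483 to 4907 CPM at 3 dpa.

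Calls among genes of ribosome assembly were mostly falls, while the cell cycle list had a share of falls near that of all tested genes. Of the ribosome biogenesis genes, 1 of 53 tested members rose and 15 fell (median log2 change -0.54). A log2 change below 0 was found for 50 of 53, against 8510 of all 16612 tested genes. Rises numbered 0 without 10 dpa replicate 2 or 3 or without 3 dpa replicate 1, 2 or 3 and 0 with no filter. Falls numbered 5 to 9 without 10 dpa replicate 1 or 3 or without 3 dpa replicate 1 or 2 and 26 in the paired fit. Nucleophosmin (npm1a) had 25.3, 26.1 and 23.0 CPM at 10 dpa, against 66.4, 70.2 and 52.0 CPM at 3 dpa (log2 change -1.34 ± 0.23, adjusted p = 0.00147). DDX21, a nucleolar RNA helicase, was the member that rose, averaging 63.6 ± 12.0 CPM at 10 dpa and 41.1 ± 5.00 CPM at 3 dpa (adjusted p = 0.0422), and it did not pass without 10 dpa replicate 2 or 3 or without 3 dpa replicate 1, 2 or 3 or with no filter on low counts. Of the translation and ribosomal protein genes, 2 of 71 tested members rose and 1 fell (median log2 change 0.28). A log2 change above 0 was found for 60 of 71, against 8102 of all 16612 tested genes. Rises numbered 0 to 1 with any 1 of the 6 libraries left out, 1 with no filter, 4 with the block over 12 libraries, 5 by DESeq2 and 27 in the paired fit. Falls numbered 2 without 10 dpa replicate 1, 2 with the block over 12 libraries, by DESeq2 or without 2 dpa replicate 2 and 4 in the paired fit. The list summed to 95699.9 to 100049 CPM at 10 dpa, against 74392 to 87178 CPM at 3 dpa. The initiation factor gene eif4a1a had 181, 212 and 168 CPM at 10 dpa, against 505, 638 and 605 CPM at 3 dpa (log2 change -1.64 ± 0.26, adjusted p = 8.19e-04) and was the one that fell.

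For the cell cycle and DNA replication list, 1 of 85 tested members rose and 9 fell (median log2 change -0.32). The share of rises was 1.18%, against 11.3% of all tested genes, and that of falls 10.6%, against 8.25%. A log2 change below 0 was found for 67 of 85, against 8510 of all 16612 tested genes. Falls numbered 1 to 5 with any 1 of the 6 libraries left out and 25 in the paired fit. The proliferation marker mki67, chosen after its values were seen, averaged 88.6 ± 7.84 CPM at 10 dpa and 151 ± 18.6 CPM at 3 dpa (log2 change -0.77 ± 0.19, adjusted p = 0.0124), which did not pass without 10 dpa replicate 2. In the uncut fin it averaged 25.6 ± 3.89 CPM. The chromatin protein gene hmgb2b averaged 125 ± 9.19 CPM at 10 dpa and 238 ± 53.3 CPM at 3 dpa (adjusted p = 0.013), which did not pass without 10 dpa replicate 3 or without 3 dpa replicate 3. STMN1 (ENSDARG00000004169), a regulator of microtubules, rose (log2 change 1.36 ± 0.23).

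Of the glycolysis genes, 3 of 31 tested members rose and 4 fell (median log2 change -0.15). Rises numbered 5 with the block over 12 libraries or by DESeq2 and 6 in the paired fit. Falls numbered 1 to 2 without 10 dpa replicate 2 or 3 or without 3 dpa replicate 1, 2 or 3. The lactate transporters went apart, with SLC16A3 (ENSDARG00000028583) at 4.88 ± 1.15 CPM at 10 dpa and 2.02 ± 0.364 CPM at 3 dpa (log2 change 1.28 ± 0.32, adjusted p = 0.0122) and SLC16A1 (ENSDARG00000068572) at 11.2 ± 4.67 CPM at 10 dpa and 27.9 ± 8.27 CPM at 3 dpa (log2 change -1.31 ± 0.29, adjusted p = 0.00668). Of the mitochondrial respiration genes, 0 of 52 tested members rose and 5 fell (median log2 change -0.31). A log2 change below 0 was found for 46 of 52, against 8510 of all 16612 tested genes. Rises numbered 1 without 3 dpa replicate 3 or without 2 dpa replicate 2. They also numbered 1 with the block over 12 libraries, by DESeq2 and in the paired fit. Falls numbered 0 to 2 with any 1 of the 6 libraries left out, 3 with no filter, 9 with the block over 12 libraries, 8 by DESeq2 and 17 in the paired fit. In the lipid list, 6 of 31 tested members rose and 3 fell (median log2 change 0.14). Rises numbered 10 by DESeq2. Falls numbered 5 with the block over 12 libraries and 6 in the paired fit. Beside the ptgdsb genes, DGAT2, which makes triglyceride, averaged 11.5 ± 7.69 CPM at 10 dpa and 0.320 ± 0.247 CPM at 3 dpa (adjusted p = 1.33e-04). The apolipoprotein gene apoeb had 3347, 1869 and 3029.9 CPM at 10 dpa, against 8319, 7508 and 10546 CPM at 3 dpa (log2 change -1.68 ± 0.30, adjusted p = 0.00205), and apoc1 averaged 5.33 ± 0.311 CPM at 10 dpa and 22.1 ± 11.7 CPM at 3 dpa.

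Skeletal genes were described in the order of bone matrix, enamel-like matrix, bone resorption and joints. Of the osteoblast and bone matrix genes, 10 of 35 tested members rose and 1 fell (median log2 change 0.17). Summed levels of the list overlapped, at 15699 to 18727 CPM at 10 dpa, against 16111 to 16836 CPM at 3 dpa. Rises numbered 5 without 3 dpa replicate 2. Falls numbered 2 without 10 dpa replicate 1, 2 with no filter, with the block over 12 libraries, in the unpaired fit of 6 libraries or by DESeq2 and 7 in the paired fit. Osteopontin (spp1), a phosphoprotein of bone, had 329.7, 264 and 344 CPM at 10 dpa, against 36.3, 26.9 and 36.8 CPM at 3 dpa (log2 change 3.23 ± 0.31, adjusted p = 2.83e-05), above the uncut fin (86.5 ± 32.4 CPM). The gene mgp, whose product (matrix Gla protein) restrains calcification, had 15.7, 11.06 and 18.1 CPM at 10 dpa, against 0.230, 0.162 and 0.837 CPM at 3 dpa (adjusted p = 4.49e-05). SLC20A1 (ENSDARG00000020114), a phosphate transporter, averaged 21.4 ± 11.9 CPM at 10 dpa and 2.54 ± 0.987 CPM at 3 dpa (log2 change 3.08 ± 0.50, adjusted p = 0.00103). DLX5, a homeobox gene of bone precursors, fell, with 176, 130.1 and 149.97 CPM at 10 dpa, against 359, 339.9 and 311 CPM at 3 dpa (log2 change -1.15 ± 0.22, adjusted p = 0.00286). The osteoblast regulator SP7 averaged 52.7 ± 3.94 CPM at 10 dpa and 61.6 ± 19.3 CPM at 3 dpa and did not pass (adjusted p = 0.726). Another, RUNX2 (ENSDARG00000040261), averaged 54.3 ± 18.2 CPM at 10 dpa and 63.0 ± 28.0 CPM at 3 dpa and did not pass (adjusted p = 0.762).

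Of the secretory calcium-binding phosphoproteins, 2 of 7 tested members rose and 2 fell (median log2 change -1.62). Falls numbered 0 to 1 without 10 dpa replicate 1 or 2 or without 3 dpa replicate 1 or 3, 1 with no filter or with the block over 12 libraries and 4 in the unpaired fit of 6 libraries. The gene scpp7 had 3.00, 9.20 and 14.1 CPM at 10 dpa, against 61.3, 14.5 and 68.1 CPM at 3 dpa (adjusted p = 0.0202), which did not pass without 10 dpa replicate 1 or 2 or without 3 dpa replicate 1 or 3, with no filter on low counts, with the replicate block over all 12 libraries or in the paired fit. For ambn, the ameloblastin gene, the levels were 5.77, 3.90 and 10.7 CPM at 10 dpa, against 22.5, 13.4 and 26.3 CPM at 3 dpa (log2 change -1.62 ± 0.40, adjusted p = 0.0127), and it did not pass without 10 dpa replicate 2 or without 3 dpa replicate 3. The enamelin gene enam had 538, 579.6 and 1018 CPM at 10 dpa, against 2823, 1115 and 2907 CPM at 3 dpa (adjusted p = 0.222) and scpp5 had 31.2, 21.2 and 41.2 CPM at 10 dpa, against 99.8, 84.3 and 112 CPM at 3 dpa (adjusted p = 0.0657), both without overlap. In the fit of the 6 libraries alone and in the paired fit both fell, and scpp5 also passed without 2 dpa replicate 2. The gene odam, for another protein of this family, averaged 2.82 ± 2.22 CPM at 10 dpa and 0.296 ± 0.142 CPM at 3 dpa.

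Of the osteoclast genes, 3 of 13 tested members rose and 1 fell (median log2 change 0.20). The resorption enzyme gene CTSK averaged 414 ± 61.2 CPM at 10 dpa and 448 ± 13.5 CPM at 3 dpa (adjusted p = 0.758). TCIRG1, a subunit of the proton pump, had 8.91, 3.73 and 9.30 CPM at 10 dpa, against 1.15, 0.485 and 0.913 CPM at 3 dpa (log2 change 3.18 ± 0.45, adjusted p = 3.55e-04). The 2 identifiers named ITGB3, an integrin subunit of osteoclasts and platelets, moved apart, ENSDARG00000056767 with a log2 change of 1.22 ± 0.22 and ENSDARG00000045070 with -1.06 ± 0.18.

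Calls among joint, cartilage and tendon genes were mostly rises, as 11 of 25 tested members rose and 1 fell (median log2 change 1.52). Rises numbered 7 without 10 dpa replicate 1, 2 or 3 or without 3 dpa replicate 2 and 7 with no filter. Falls numbered 4 in the paired fit. The gene prg4a, for lubricin of joint surfaces, averaged 56.8 ± 8.22 CPM at 10 dpa and 3.62 ± 2.53 CPM at 3 dpa (adjusted p = 9.74e-05). Its paralog prg4b averaged 6.03 ± 1.05 CPM at 10 dpa and 0.146 ± 0.164 CPM at 3 dpa (adjusted p = 1.40e-04). In the uncut fin prg4a averaged 932 ± 167 CPM, far above its 10 dpa level, and prg4b 12.3 ± 5.88 CPM. The cartilage matrix gene ucmaa had 30.0, 40.05 and 39.4 CPM at 10 dpa, against 0.804, 0.485 and 1.98 CPM at 3 dpa (adjusted p = 2.49e-05), above the uncut fin (15.0 ± 7.87 CPM). GDF5, a growth factor of joints that was chosen after its values were seen, averaged 6.78 ± 0.272 CPM at 10 dpa and 1.68 ± 1.09 CPM at 3 dpa (adjusted p = 0.00679). Its relative gdf6a was the member that fell (log2 change -1.21 ± 0.22).

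Epidermal genes of cell attachment moved in both directions, and so did the keratins named here. In bulk tissue, fewer cells of a type and less RNA per cell cannot be told apart, which holds for this and for all cell types that follow. Of the basement membrane and hemidesmosome genes, 8 of 34 tested members rose and 8 fell (median log2 change 0.06, of either sign over the alternative settings). The hemidesmosome genes col17a1a and ITGB4 rose. For col17a1a, a collagen that anchors cells through the membrane, the levels were 976, 930.0 and 946 CPM at 10 dpa, against 42.0, 21.9 and 29.4 CPM at 3 dpa (log2 change 4.94 ± 0.28, adjusted p = 8.66e-07), close to the uncut fin (1162 ± 188 CPM). ITGB4, the integrin subunit of hemidesmosomes, had 1920.1, 2158 and 1369 CPM at 10 dpa, against 497, 407 and 608 CPM at 3 dpa (log2 change 1.85 ± 0.27, adjusted p = 4.80e-04). In contrast FREM1, FREM2 and FREM3 fell, with log2 changes of -2.28 ± 0.31, -3.15 ± 0.40 and -4.08 ± 0.61. FREM2 (ENSDARG00000076856) had 57.3, 58.8 and 38.6 CPM at 10 dpa, against 454, 608 and 312 CPM at 3 dpa.

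Of the epidermal keratins and junction genes, 17 of 51 tested members rose and 4 fell (median log2 change 0.55). Rises numbered 11 without 10 dpa replicate 2. Falls numbered 1 to 2 without 10 dpa replicate 1 or 3 or without 3 dpa replicate 1 or 2. The keratin gene krt1-19d had 504, 977 and 657 CPM at 10 dpa, against 133, 260.1 and 237 CPM at 3 dpa (log2 change 1.76 ± 0.31, adjusted p = 0.00168). The simple epithelium keratin gene krt18a.1 had 1512, 1148 and 1298 CPM at 10 dpa, against 5821, 4629 and 4912 CPM at 3 dpa (log2 change -1.96 ± 0.36, adjusted p = 0.00239). Summed levels of the list were 73091 to 87805 CPM at 10 dpa, against 50926 to 53958 CPM at 3 dpa. Of the goblet cell and ionocyte genes, 4 of 15 tested members rose and 1 fell (median log2 change 1.08), while 14 of 29 identifiers were too low to be tested. The list summed to 527 to 883 CPM at 10 dpa, against 678 to 1078 CPM at 3 dpa, so the stages overlapped. Falls numbered 0 without 10 dpa replicate 1 or 2 or without 3 dpa replicate 1, 2 or 3, 0 with no filter, 2 with the block over 12 libraries and 3 in the paired fit. The mucin gene muc5.2 had 15.0, 18.7 and 9.10 CPM at 10 dpa, against 1.38, 1.94 and 1.67 CPM at 3 dpa (log2 change 3.07 ± 0.44, adjusted p = 4.48e-04), and AGR2 averaged 11.4 ± 1.87 CPM at 10 dpa and 2.30 ± 0.848 CPM at 3 dpa (log2 change 2.30 ± 0.51, adjusted p = 0.00644).

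Melanocyte genes formed the list with the largest share of rises. Melanocytes, the black pigment cells, make melanin in organelles built on fibrils of the PMEL protein. Of the melanocyte genes, 13 of 17 tested members rose and 0 fell (median log2 change 2.79), and the list summed to 549.9 to 677 CPM at 10 dpa, against 65.7 to 115 CPM at 3 dpa. The fibril gene pmela had 197, 135 and 159.8 CPM at 10 dpa, against 8.61, 4.12 and 13.2 CPM at 3 dpa (log2 change 4.26 ± 0.44, adjusted p = 4.20e-05). The receptor MC1R, which switches melanin synthesis, had 3.29, 2.91 and 2.17 CPM at 10 dpa, against 0.115, 0.121 and 0.152 CPM at 3 dpa (log2 change 4.35 ± 0.77, adjusted p = 0.00188). TFAP2E, a transcription factor of pigment cells in zebrafish, averaged 17.1 ± 5.81 CPM at 10 dpa and 1.01 ± 0.676 CPM at 3 dpa (adjusted p = 9.74e-05). In the uncut fin these 3 genes averaged 142 ± 30.2 CPM, 3.02 ± 0.941 CPM and 32.3 ± 2.64 CPM. Of the list for xanthophores and iridophores, the yellow and reflecting pigment cells, 9 of 22 tested members rose and 2 fell (median log2 change 0.79). Its summed levels overlapped, at 729 to 827 CPM at 10 dpa, against 694 to 792 CPM at 3 dpa. Much of both sums came from MYCBP2 and TJP1, neither of which passed. MYCBP2 averaged 224 ± 8.74 CPM at 10 dpa and 221 ± 3.80 CPM at 3 dpa, and TJP1 133 ± 12.3 CPM and 124 ± 17.5 CPM. The 10 dpa libraries lay entirely above those of 3 dpa for 11 of the 22 tested members and entirely below for 2. The purine enzyme gene pnp4a, an iridophore marker in zebrafish, averaged 2.94 ± 0.507 CPM at 10 dpa and 0.247 ± 0.115 CPM at 3 dpa (log2 change 3.42 ± 0.55, adjusted p = 9.60e-04). The 2 identifiers named EDNRB, an endothelin receptor, moved apart. ENSDARG00000089334 had 10.9, 11.0 and 14.3 CPM at 10 dpa, against 1.03, 0.687 and 0.761 CPM at 3 dpa (log2 change 3.90 ± 0.36, adjusted p = 2.11e-05). ENSDARG00000053498 had 2.05, 1.92 and 2.69 CPM at 10 dpa, against 15.7, 18.9 and 15.07 CPM at 3 dpa (log2 change -2.92 ± 0.35, adjusted p = 1.18e-04).

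Of the nerve and glia genes, 10 of 20 tested members rose and 2 fell (median log2 change 1.23). The list summed to 328 to 374 CPM at 10 dpa, against 344 to 508 CPM at 3 dpa, so the stages overlapped. Much of the 3 dpa sum came from tubb5, which averaged 71.3 ± 13.2 CPM at 10 dpa and 277 ± 85.4 CPM at 3 dpa. The 10 dpa libraries lay entirely above those of 3 dpa for 14 of the 20 tested members and entirely below for 3. Among the rises were the myelin genes plp1b, given above, and mbpa, with 8.69, 4.66 and 8.68 CPM at 10 dpa, against 0.115, 0.565 and 0.0761 CPM at 3 dpa (adjusted p = 1.48e-04). The transcription factor gene SOX10, chosen after its values were seen, had 22.3, 21.1 and 25.3 CPM at 10 dpa, against 2.53, 1.13 and 4.03 CPM at 3 dpa (log2 change 3.2 ± 0.44, adjusted p = 2.89e-04). Whether the SOX10 transcripts came from glia or from other cells was not tested. In the uncut fin mbpa averaged 7.28 ± 1.36 CPM and SOX10 27.2 ± 4.66 CPM. The 2 members that fell were STMN2 (ENSDARG00000070537), a protein of growing nerve fibres, with 1.31, 0.989 and 2.69 CPM at 10 dpa, against 10.1, 13.1 and 9.13 CPM at 3 dpa (log2 change -2.75 ± 0.41, adjusted p = 5.81e-04), and the tubulin gene tubb5, with 86.5, 64.4 and 63.0 CPM at 10 dpa, against 375, 219 and 237 CPM at 3 dpa (log2 change -1.96 ± 0.39, adjusted p = 0.00391). Of the list, 12 of 32 identifiers were too low to be tested. Of the lateral line and sensory cell genes, 4 of 16 tested members rose and 2 fell (median log2 change 0.79). Falls numbered 1 without 3 dpa replicate 2. Of the 2 identifiers named TPH1, the enzyme that starts serotonin synthesis, ENSDARG00000036082 averaged 5.3 ± 1.95 CPM at 10 dpa and 31.7 ± 20.3 CPM at 3 dpa and fell (adjusted p = 0.00337). The other, ENSDARG00000029432, averaged 1.1 ± 0.378 CPM at 10 dpa and 0.259 ± 0.0400 CPM at 3 dpa and rose (log2 change 2.03 ± 0.58, adjusted p = 0.0257), but did not pass without 10 dpa replicate 1 or 3 or without 3 dpa replicate 1, 2 or 3.

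**Figure D4:**
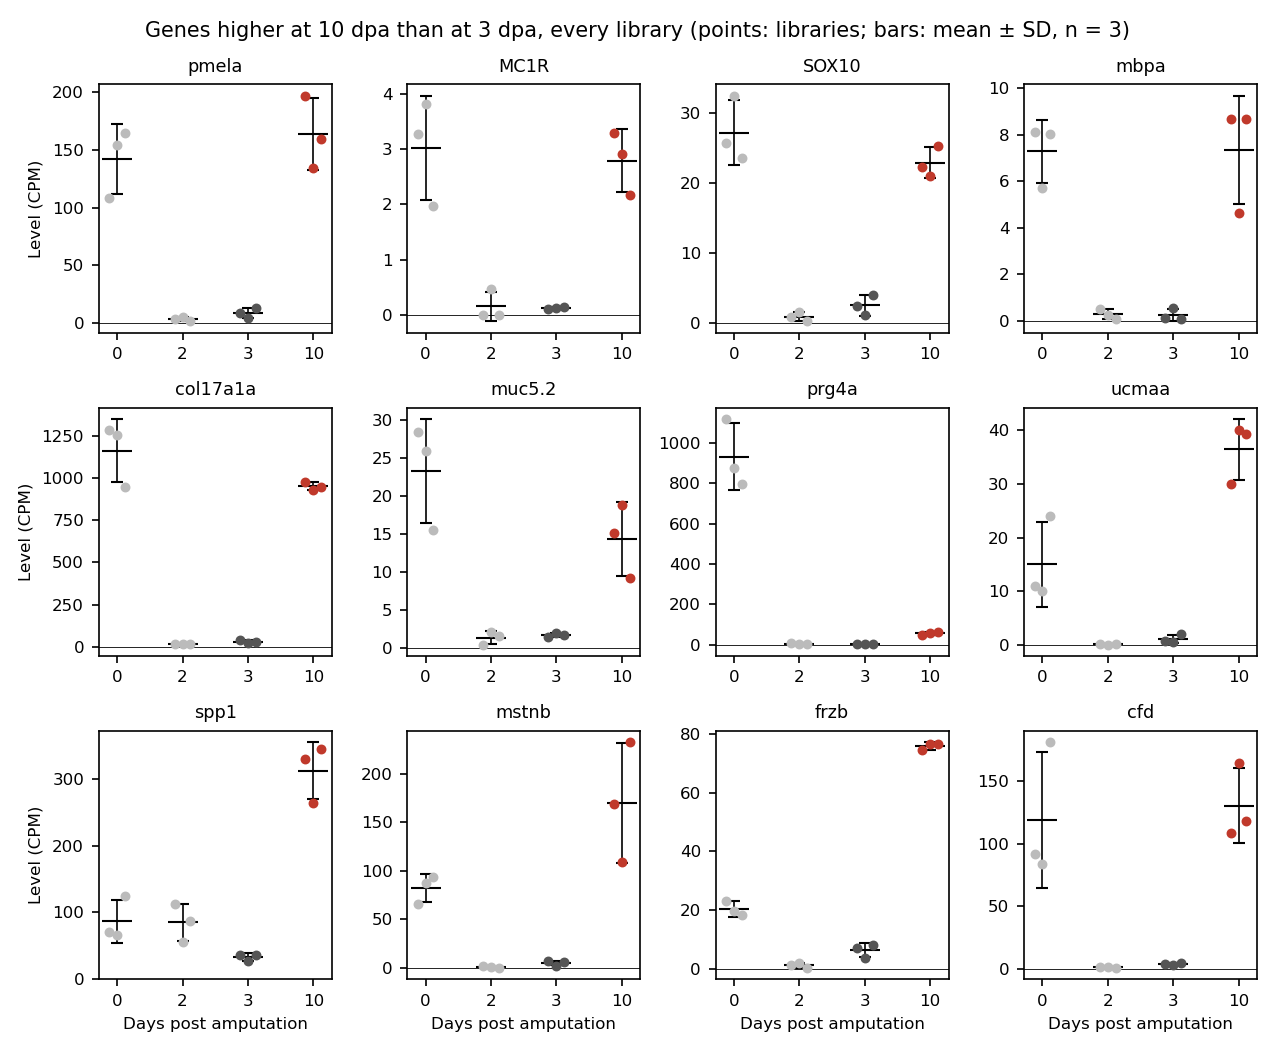
Levels in CPM (vertical axes, starting at or just below 0) of 12 genes that rose between 3 and 10 dpa, by days post amputation. Points are single libraries and bars the mean ± SD of 3. In each panel the 3 points at 10 dpa lie above the 3 at 3 dpa. For prg4a they lie far below the uncut fin, and for spp1, mstnb, frzb and ucmaa above it.

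Among endothelial genes 4 of 38 tested members rose and 1 fell (median log2 change 0.27). Rises numbered 11 in the paired fit. Falls numbered 0 to 2 with any 1 of the 6 libraries left out, 0 with no filter, 2 with the block over 12 libraries and 4 in the paired fit. Von Willebrand factor (vwf), a clotting protein stored in endothelium, had 8.04, 13.5 and 8.99 CPM at 10 dpa, against 1.49, 1.98 and 1.98 CPM at 3 dpa (log2 change 2.47 ± 0.31, adjusted p = 1.55e-04), above the uncut fin (3.92 ± 0.628 CPM). The lymphatic marker gene lyve1a had 1.24, 5.3 and 5.79 CPM at 10 dpa, against 0.344, 0.0808 and 0.152 CPM at 3 dpa (log2 change 4.61 ± 0.71, adjusted p = 7.10e-04). On the same list lyve1b was too low to be tested, with 0 counts in all at 10 dpa and 2 at 3 dpa. FLI1, a transcription factor of endothelium, averaged 66.7 ± 13.7 CPM at 10 dpa and 68.0 ± 18.5 CPM at 3 dpa (adjusted p = 0.963). Calls among mural and smooth muscle genes were all rises, as 8 of 19 tested members rose and 0 fell (median log2 change 1.15), summing to 1199.6 to 1259 CPM at 10 dpa, against 737 to 814 CPM at 3 dpa. Rises numbered 14 in the paired fit. ABCC9, a channel subunit of pericytes, had 18.0, 16.01 and 19.7 CPM at 10 dpa, against 2.53, 3.35 and 3.50 CPM at 3 dpa (log2 change 2.50 ± 0.38, adjusted p = 6.77e-04). Of the red cell and thrombocyte genes, 4 of 16 tested members rose and 0 fell (median log2 change 0.77). Falls numbered 1 in the paired fit. Rises numbered 1 to 2 without 10 dpa replicate 3 or without 3 dpa replicate 1 or 3, 2 with no filter and 7 in the paired fit. The heme synthesis gene alas2 averaged 15.09 ± 6.65 CPM at 10 dpa and 5.00 ± 0.282 CPM at 3 dpa (log2 change 1.58 ± 0.36, adjusted p = 0.00731). The summed level of that list was 556 to 700.3 CPM at 10 dpa, against 391.7 to 682 CPM at 3 dpa, so the stages overlapped.

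Macrophage genes moved in both directions. Of the list, 5 of 37 tested members rose and 7 fell (median log2 change -0.08, of either sign over the alternative settings). Rises numbered 2 to 3 without 10 dpa replicate 1 or without 3 dpa replicate 2, 8 with the block over 12 libraries, in the unpaired fit of 6 libraries or without 2 dpa replicate 2 and 10 in the paired fit. The amino acid transporter gene SLC7A7 (ENSDARG00000055226) had 7.09, 6.46 and 6.82 CPM at 10 dpa, against 20.2, 34.1 and 29.8 CPM at 3 dpa (log2 change -2.05 ± 0.22, adjusted p = 4.90e-05), and the chemerin receptor CMKLR1 (ENSDARG00000090890) averaged 4.84 ± 0.446 CPM at 10 dpa and 14.3 ± 1.3 CPM at 3 dpa (log2 change -1.56 ± 0.30, adjusted p = 0.00308). The receptor gene csf1rb averaged 2.83 ± 1.04 CPM at 10 dpa and 0.969 ± 0.153 CPM at 3 dpa (log2 change 1.53 ± 0.35, adjusted p = 0.00878). The lysozyme gene lyz had 1.46, 3.61 and 2.07 CPM at 10 dpa, against 0.115, 0.0404 and 0.0761 CPM at 3 dpa (log2 change 5.00 ± 0.83, adjusted p = 0.00114). It stands on the neutrophil list as well, where 5 of 16 tested members rose and 2 fell (median log2 change 0.62). Rises numbered 2 to 3 without 10 dpa replicate 1 or 3 or without 3 dpa replicate 2 or 3 and 9 in the paired fit. CSF3R, the receptor for a growth factor of neutrophils, averaged 17.9 ± 3.31 CPM at 10 dpa and 8.05 ± 0.154 CPM at 3 dpa (log2 change 1.15 ± 0.20, adjusted p = 0.00166).

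Calls among lymphocyte genes were mostly rises, as 8 of 23 tested members rose and 1 fell (median log2 change 0.76). Of the 37 identifiers, 14 were too low to be tested. The list summed to 669 to 1191 CPM at 10 dpa, against 583 to 1099 CPM at 3 dpa, so the stages overlapped. Rises numbered 4 to 5 without 10 dpa replicate 1 or without 3 dpa replicate 2 or 3. The interleukin receptor gene il2rb had 46.8, 35.6 and 25.6 CPM at 10 dpa, against 6.09, 6.82 and 7.61 CPM at 3 dpa (log2 change 2.39 ± 0.40, adjusted p = 0.00123), and the chemokine receptor CCR7 had 11.2, 4.54 and 6.20 CPM at 10 dpa, against 1.26, 0.404 and 0.761 CPM at 3 dpa (log2 change 3.30 ± 0.60, adjusted p = 0.00223). TCF7, which also stands on the Wnt list, was the member that fell. Of the inflammation and interferon genes, 10 of 49 tested members rose and 3 fell (median log2 change 0.05, of either sign over the alternative settings). Rises numbered 16 in the paired fit. Complement factor D (cfd) had 108, 164 and 118 CPM at 10 dpa, against 4.13, 3.03 and 4.19 CPM at 3 dpa (log2 change 5.12 ± 0.36, adjusted p = 3.01e-06), and the chemokine gene ccl19b averaged 7.31 ± 0.757 CPM at 10 dpa and 0.358 ± 0.485 CPM at 3 dpa (adjusted p = 2.74e-04). ACOD1, which makes itaconate in macrophages, fell, averaging 1.53 ± 0.661 CPM at 10 dpa and 6.93 ± 2.73 CPM at 3 dpa (log2 change -2.18 ± 0.45, adjusted p = 0.00465).

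Of the skeletal muscle genes, 3 of 14 tested members rose and 1 fell (median log2 change 0.59), 30 of 44 identifiers were too low to be tested, and the list summed to 128 to 202 CPM at 10 dpa, against 99.9 to 139 CPM at 3 dpa. Rises numbered 1 without 10 dpa replicate 1 or 3 or without 3 dpa replicate 1 or 3. TNNT3 (ENSDARG00000068457), a troponin subunit, was the member that fell, with 1.1, 1.80 and 1.96 CPM at 10 dpa, against 4.36, 7.96 and 6.16 CPM at 3 dpa (log2 change -1.94 ± 0.34, adjusted p = 0.00158). Of the clock genes, 11 of 31 tested members rose and 1 fell (median log2 change 0.82). Rises numbered 7 without 10 dpa replicate 1 or without 3 dpa replicate 2. The clock repressor gene nr1d2a had 57.9, 169.6 and 184 CPM at 10 dpa, against 21.7, 13.9 and 36.9 CPM at 3 dpa (log2 change 2.51 ± 0.56, adjusted p = 0.00733), and the output gene hlfa had 92.8, 69.0 and 92.7 CPM at 10 dpa, against 32.0, 22.8 and 36.8 CPM at 3 dpa (log2 change 1.48 ± 0.27, adjusted p = 0.00239). The hour at which fins were collected is not given in the sources used here. Of the immediate early and heat shock genes, 4 of 29 tested members rose and 3 fell (median log2 change 0.47). Rises numbered 1 to 2 without 10 dpa replicate 1 or 2 or without 3 dpa replicate 1 or 2, 9 in the unpaired fit of 6 libraries, 8 by DESeq2 or in the paired fit and 7 without 2 dpa replicate 2. The flow-responsive gene klf2a had 2461, 2686 and 3236 CPM at 10 dpa, against 315, 358 and 449 CPM at 3 dpa (log2 change 2.90 ± 0.58, adjusted p = 0.00369). JUNB (ENSDARG00000074378), a subunit of the AP-1 factor, had 144, 76.8 and 222 CPM at 10 dpa, against 505, 409.9 and 705 CPM at 3 dpa (log2 change -1.87 ± 0.46, adjusted p = 0.0119). FOSL2, another subunit, had 123, 102 and 62.3 CPM at 10 dpa, against 391, 310.4 and 391.9 CPM at 3 dpa (log2 change -1.92 ± 0.30, adjusted p = 7.79e-04).

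**Figure D5:**
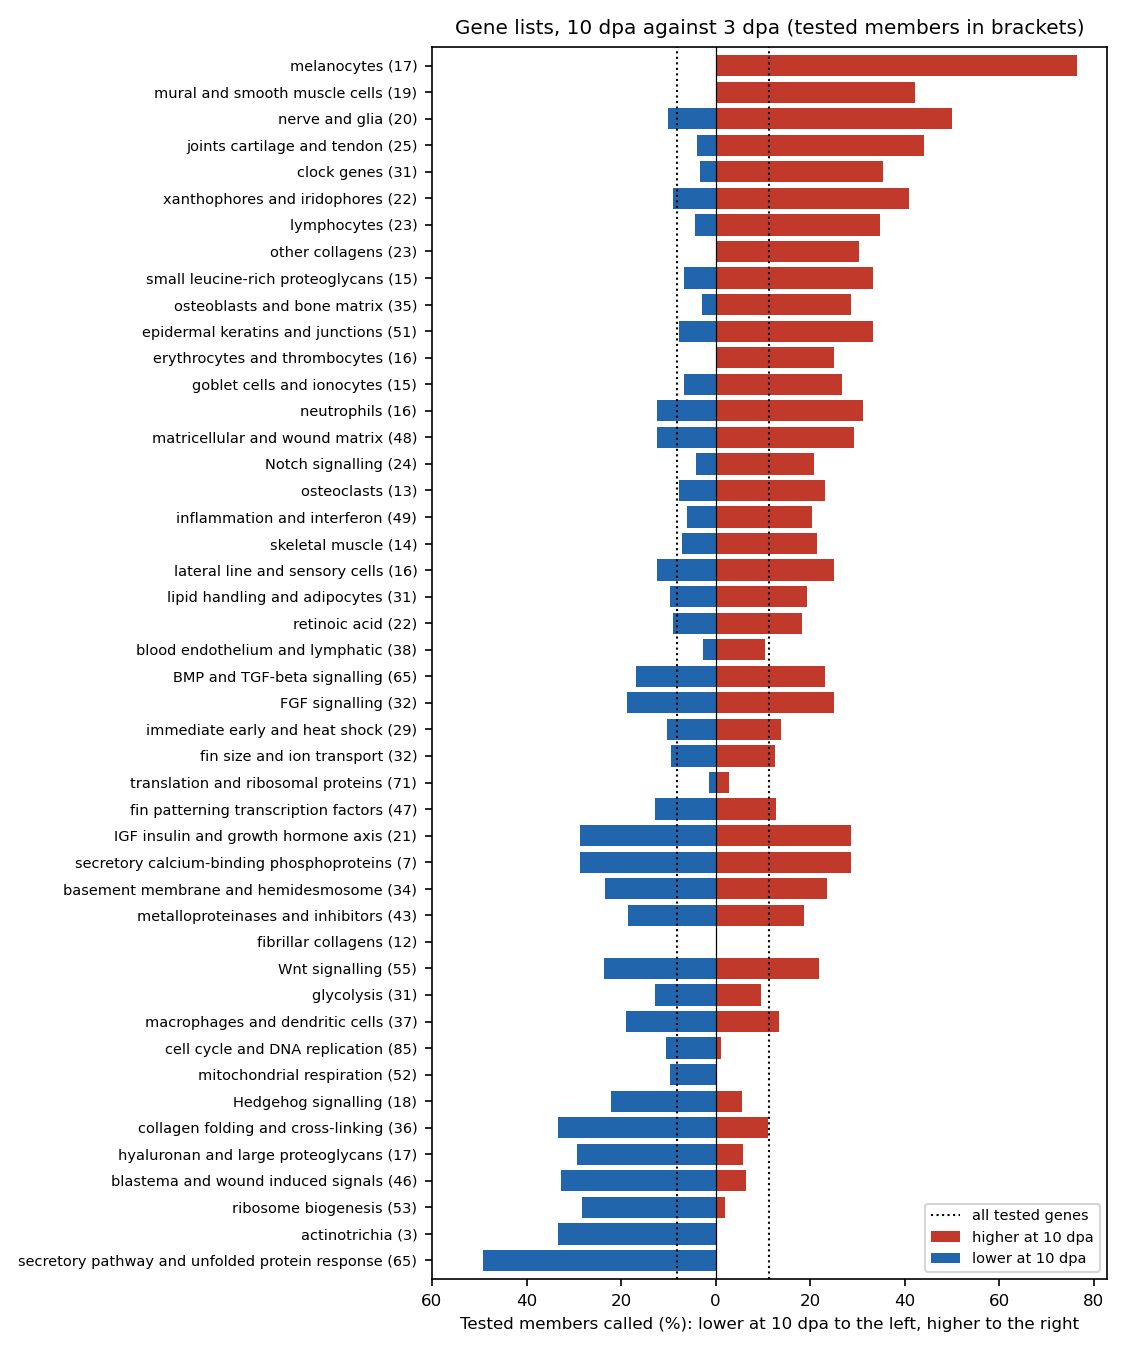
Share of tested members called higher (right, red) or lower (left, blue) at 10 dpa than at 3 dpa for each of the 46 gene lists, in percent, with the number tested in brackets. Dotted lines mark the shares of all tested genes, 11.3% higher and 8.25% lower. Melanocyte genes show the largest share of rises (76.5%) and secretory pathway genes the largest share of falls (49.2%).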

How the data were processed

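RNA of caudal fins was extracted with a Macherey-Nagel RNA XS kit without carrier RNA, and libraries were built with a SENSE mRNA-Seq kit (Lexogen) for a SOLiD Wildfire sequencer, per the labels' protocols. The authors deposited 1 table of raw read counts per Ensembl gene for all 12 libraries. Not given in the sources used here were the aligner, counting tool, genome build, annotation and strand setting, so counts of paralogs and of genes that overlap, antisense ones included, are uncertain. Symbols were taken from the gene name table supplied with the data (81.5% of tested genes). Symbols in capitals do not say which zebrafish paralog an identifier is, and identifiers are given where several share a symbol. Levels were not compared between genes, since no transcript lengths were used.

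Counts were filtered with filterByExpr (minimum count 10), scaled by TMM, and fitted by stage with edgeR 4.0.16 (robust quasi-likelihood, R 4.3.3) over all 12 libraries, which share 1 estimate of the spread. The contrast was 10 dpa minus 3 dpa, with p-values adjusted by Benjamini-Hochberg over 16612 genes and a threshold of 0.05. At a biological coefficient of variation of 26.9%, 5483 genes had an unadjusted p under 0.05. Each replicate is a pool, so the p-values rest on pool-to-pool spread. No log2 change is printed where a single library left out moved the fold between stages by 1.5 times or more, nor for some other genes given by their levels.

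Genes could be named if they passed the threshold, carried a symbol, did not overlap between stages and had 10 or more counts in each library of the higher stage. From these the 12 largest rises and 12 largest falls were taken, with up to 3 of each from each of 46 gene lists, or the 2 members of smallest p where no member passed. A gene that the rule names is not reported here. SALL1, SALL4, SEC23B, SOX10, GDF5, SP7, RUNX2, CTSK, FLI1, LOXL1, krt5, epcam, mki67, enam, scpp5, and2 and and3 were chosen after their values were seen. The comparison, the lists and their members were chosen with earlier results of these data known. Of 2071 list names, 598 matched a symbol exactly, 646 ignoring case and 461 a capital symbol without the paralog letter, and 366 had no match.

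Libraries of 10 dpa and 3 dpa with the same replicate number deviated together from their stage means. Correlations across genes were 0.142 to 0.478 in 3 of 3 pairs, against -0.381 to 0.00989 for pairs of other numbers. Deviations cancel out within a stage, so these ranges are not independent. Over all stages the correlation of same-number pairs ran from -0.225 to 0.478 and was above 0.1 in 11 of 18. Replicate number was fitted as a block among the alternatives. Calls, p-values and list counts come from the fit by stage alone unless another fit is named. Alternatives were RLE scaling, no filter, a replicate block, the 6 libraries alone, DESeq2 1.42.0, each library of the 2 stages left out, 2 dpa replicate 2 left out, and, added after the data were seen, the replicate block over the 6 libraries alone.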

Additional observations from a re-analysis of the deposited data

How the results depend on the processing

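The replicate block over all 12 libraries gave 2159 genes higher and 1859 lower at 10 dpa, of which 1855 and 1365 were also called without the block. The paired fit over the 6 libraries alone, chosen after the data were seen, gave 3091 higher and 2839 lower. Leaving out 1 of the 6 libraries gave 1287 to 1533 higher and 742 to 955 lower. RLE scaling gave 1923 and 1308, no filter 1806 and 1182, the 6 libraries without a block 2001 and 1471, DESeq2 2211 and 1677, and leaving out 2 dpa replicate 2 gave 2196 and 1651. Genes tested numbered 15934 in both fits of 6 libraries, 26138 with no filter and 16601 by DESeq2. They numbered 17007 without 2 dpa replicate 2, 16973 to 17050 with 1 of the 6 libraries left out, and 16612 otherwise. No named gene changed sign in these alternatives. The naming rule asks for stages without overlap, which nearly fixes the sign, so this does not test the dependence on processing. Of the 210 named genes, 153 passed in all 13. Of 83 list counts above 0, 41 moved by more than 1.5 times with 1 library left out, 36 in the paired fit and 11 with the block over 12 libraries. The paired fit and the libraries left out change the number of samples or the spread the test uses, and no other cause was tested. The number of pools, 3 a stage, limits the precision.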
